A study of Mus musculus with 9 samples.

Results

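NRF2, encoded by Nfe2l2, is a transcription factor, and the 10 genes described here are 3 parts of its control circuit and 7 of its detoxification targets. They were taken by gene symbol from the deposited count table, and are 10 of the 54134 entries left there after 98 exact repeats were removed. The circuit genes are Nfe2l2, Keap1 and Mafg, and the targets are Nqo1, Osgin1, Cbr3, Ugdh, Ephx1, Abcc1 and Aldh3a1. Messenger RNA was sequenced after poly(A) selection in 9 libraries. Titles call the cells HT22, which is a neuronal line from mouse hippocampus, and the cell type label reads HT-4. Cells of 3 libraries were given oxyhemoglobin and NTR1 together (Hb+NTR1), cells of 3 were given oxyhemoglobin alone (Hb), and cells of 3 were left without any treatment (control). The genotype label is WT in all 9, dose and exposure time are not given in the labels, the series title spells the agent NGR1, and no group received it without oxyhemoglobin.

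In resting cells the adaptor protein KEAP1 holds NRF2 and passes it to a CUL3 ubiquitin ligase for degradation. Electrophiles and oxidants modify cysteines of KEAP1, NRF2 then accumulates, pairs with a small MAF protein such as MAFG and binds antioxidant response elements near its target genes. The circuit is therefore known to act largely on the NRF2 protein, which was not measured here. Oxyhemoglobin, the oxygen-carrying blood pigment, releases heme and oxidants outside red cells, and heme is a known inducer of NRF2 targets.

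Library totals were 13945507 to 14280053 counts for Hb+NTR1, 13415648 to 14728662 for Hb and 14369813 to 16893746 for control. Mitochondrially encoded genes took 6.19% to 6.65% of the counts in Hb+NTR1, 4.14% to 4.57% in Hb and 4.73% to 5.20% in control, so this share was highest in the Hb+NTR1 libraries, and its part in the results was not tested. Levels are normalised CPM, that is counts relative to the library total after TMM correction, and means are given ± SD over n = 3 libraries. Whether replicates were grown as separate cultures is not stated in the labels. The p-values therefore reflect no more than the spread among these libraries, which may be technical. Hb replicate 2 stood apart: its chi-square over degrees of freedom was 13.2 and 11.04 when set against Hb replicates 1 and 3, and other pairs of the same group gave 2.53 to 5.19. Its omission is given where a call of a member changed. Markers of the labelled cell type were sparse. Of 16 neuronal markers, 13 averaged under 1 CPM in each group, and Snap25, Map2 and Gad1 had no count in any library. The summed neuronal markers were at 108 to 111 CPM in Hb+NTR1, 162 to 177 in Hb and 168 to 177 in control. The 10 fibroblast markers summed to 1231 to 1328 CPM in Hb+NTR1, 9551 to 10936 in Hb and 12531 to 13279 in control. Of these, 5 averaged under 1 CPM in Hb+NTR1, 3 in Hb and 3 in control. The 6 astrocyte markers summed to 8.62 to 10.03 CPM in Hb+NTR1, 115 to 138 in Hb and 199 to 229 in control. Of these, 5 averaged under 1 CPM in each group, with Aqp4 at 0, so the sum does not stand for the list. The 6 microglia and macrophage markers stayed under 0.959 CPM in sum in every library, with P2ry12 at 0, and the 9 erythroid markers under 2.67 CPM, with Hba-a2, Hbb-bs and Hbb-bt at 0. The neuronal, fibroblast and astrocyte sums were thus all lower in Hb+NTR1 than in both other groups, and their part in the results below was not tested. In such bulk samples fewer cells of a type and less RNA per cell cannot be told apart.

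The windows upstream of the genes are shown because a transcription factor of this kind acts through short DNA motifs near the start site. RefSeq start sites on GRCm38.p6 gave a window of 250 bases for 8 of the 10 genes, all except Abcc1 and Aldh3a1. These start sites are not always at the outer ends of the gene spans given below. Only the window of Nfe2l2 lies wholly outside its span. The windows of Osgin1 (chr8:119436897-119437146) and Ephx1 (chr1:181017570-181017819) lie within theirs, and the others overlap theirs in part. The antioxidant response element core was searched as TGACNNNGC on both strands, and 3 of the 8 windows hold it, those of Nfe2l2, Mafg and Ugdh. Over all 32851 windows of the same length, 10.2% hold the core. Capitals mark it in the sequences, which run 5′ to 3′ on the strand of the gene and end at the base before the start site. The window of Nqo1, the target with the largest rise in Hb+NTR1, is shown beside them and holds no core.
Nfe2l2, chr2:75704664-75704913, minus strand: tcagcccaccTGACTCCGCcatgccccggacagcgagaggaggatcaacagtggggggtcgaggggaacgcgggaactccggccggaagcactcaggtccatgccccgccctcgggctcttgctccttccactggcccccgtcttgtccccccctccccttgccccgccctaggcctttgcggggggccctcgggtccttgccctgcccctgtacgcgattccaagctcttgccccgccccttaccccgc
Mafg, chr11:120633548-120633797, minus strand: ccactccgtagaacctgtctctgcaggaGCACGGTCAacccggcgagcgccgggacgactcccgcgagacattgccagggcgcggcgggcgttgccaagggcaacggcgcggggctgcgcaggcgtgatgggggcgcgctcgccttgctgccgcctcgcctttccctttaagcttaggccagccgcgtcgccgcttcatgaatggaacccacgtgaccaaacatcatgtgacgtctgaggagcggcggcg
Ugdh, chr5:65435843-65436092, minus strand: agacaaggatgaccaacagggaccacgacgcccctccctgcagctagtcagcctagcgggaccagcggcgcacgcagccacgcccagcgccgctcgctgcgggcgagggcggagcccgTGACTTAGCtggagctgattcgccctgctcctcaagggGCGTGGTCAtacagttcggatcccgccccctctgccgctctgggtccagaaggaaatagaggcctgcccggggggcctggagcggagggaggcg
Nqo1, chr8:107403206-107403455, minus strand: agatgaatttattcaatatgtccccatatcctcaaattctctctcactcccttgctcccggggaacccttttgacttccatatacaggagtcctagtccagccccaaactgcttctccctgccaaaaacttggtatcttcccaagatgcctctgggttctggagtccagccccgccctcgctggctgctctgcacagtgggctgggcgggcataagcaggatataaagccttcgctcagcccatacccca
The core lies 240 to 232 bases upstream of the start in Nfe2l2 and 222 to 214 bases upstream in Mafg. Ugdh has 2, at 132 to 124 and at 94 to 86 bases, and the second lies within the span of Ugdh given below. The core of the xenobiotic response element, GCGTG, the motif of the aryl hydrocarbon receptor, was searched the same way, since Nqo1 and Aldh3a1 are also known targets of that receptor. It is in the windows of 4 genes, Keap1, Mafg, Osgin1 and Ugdh, and in 28.2% of all windows. In Ugdh 1 of its 3 matches lies within the second antioxidant core. These matches describe letters in a short window, and binding was not measured.

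Of the 3 circuit members, Nfe2l2 itself changed most in Hb+NTR1. Nfe2l2 had 160.1, 159.7 and 151.7 CPM in the Hb+NTR1 libraries, 59.2, 62.0 and 60.2 CPM in the Hb libraries, and 59.9, 65.3 and 74.9 CPM in the control libraries. All 3 Hb+NTR1 libraries lay above the other 6, while the Hb and control libraries overlapped. Nfe2l2 rose 2.60-fold in Hb+NTR1 against Hb (log2 fold change 1.38 ± 0.075 SE, edgeR adjusted p = 1.32e-13) and 2.36-fold against control (log2 fold change 1.24 ± 0.074, edgeR adjusted p = 6.59e-13). It ranked 437 from the top of 13810 tested genes in Hb+NTR1 against Hb. For Hb against control the log2 fold change was -0.14, with a 95% interval of -0.30 to 0.019, and did not pass (edgeR adjusted p = 0.387). Nfe2l2 spans chr2:75675513-75704641 on the minus strand of GRCm38 (ENSMUSG00000015839.6).

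Keap1, the inhibitor, moved the other way. Keap1 had 30.7, 32.7 and 33.8 CPM in the Hb+NTR1 libraries, 44.1, 48.2 and 45.6 CPM in the Hb libraries, and 44.4, 41.03 and 47.1 CPM in the control libraries. The Hb+NTR1 libraries were the lowest 3 of the 9, and Hb overlapped with control. Keap1 fell in Hb+NTR1, with a log2 fold change of -0.51 ± 0.084 against Hb (edgeR adjusted p = 1.40e-05) and of -0.45 ± 0.084 against control (edgeR adjusted p = 6.15e-05). Hb against control gave 0.058, with a 95% interval of -0.11 to 0.23 (edgeR adjusted p = 0.788). An antisense gene, Gm16754, overlaps 10.9% of the exon bases of Keap1 (chr9:21229730-21239361, minus strand), and it had 10 to 18 counts in Hb+NTR1, 13 to 23 in Hb and 10 to 30 in control, where Keap1 averaged 467, 649 and 672. Reads of the overlap cannot be assigned without the strand setting used in counting, which no source used here gives.

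Per length of exon, the ratio of Nfe2l2 to Keap1 was 6.46, 6.04 and 5.55 in the Hb+NTR1 libraries, 1.66, 1.59 and 1.63 in the Hb libraries, and 1.67, 1.97 and 1.96 in the control libraries. The ratio averaged 6.02 ± 0.453 in Hb+NTR1, 1.63 ± 0.0361 in Hb and 1.87 ± 0.172 in control (SD, n = 3 libraries each). It is a description of RNA levels, composed after both genes had been seen, and was not tested.

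Mafg, the DNA-binding partner, changed little. Mafg had 118.7, 115.6 and 118.5 CPM in the Hb+NTR1 libraries, 135, 127.9 and 127.9 CPM in the Hb libraries, and 117.7, 103.9 and 98.5 CPM in the control libraries. The 3 Hb libraries were the highest of the 9, and Hb+NTR1 overlapped with control. Mafg rose 1.22-fold in Hb against control (log2 fold change 0.29 ± 0.069, edgeR adjusted p = 0.0162). That call ended without control replicate 2 (edgeR adjusted p = 0.111), control replicate 3 (0.162) or Hb replicate 1 (0.0573). In Hb+NTR1 the log2 fold change of Mafg was -0.15 against Hb (edgeR adjusted p = 0.0646, and 0.0327 without Hb replicate 2) and 0.14 against control (edgeR adjusted p = 0.0804). Against control Mafg passed without Hb replicate 2 (0.0440), without control replicate 1 (0.0172), when scaled by library totals alone (0.0150) and in a fit of only the 6 libraries compared (0.0342). Sirt7, on the same strand, shares 124 exon bases, or 2.21%, with Mafg (chr11:120625117-120633600, minus strand). Sirt7 had 644 to 661 counts in Hb+NTR1, 412 to 500 in Hb and 374 to 410 in control. The part of shared reads in the Mafg values was not tested.

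**Figure D1:**
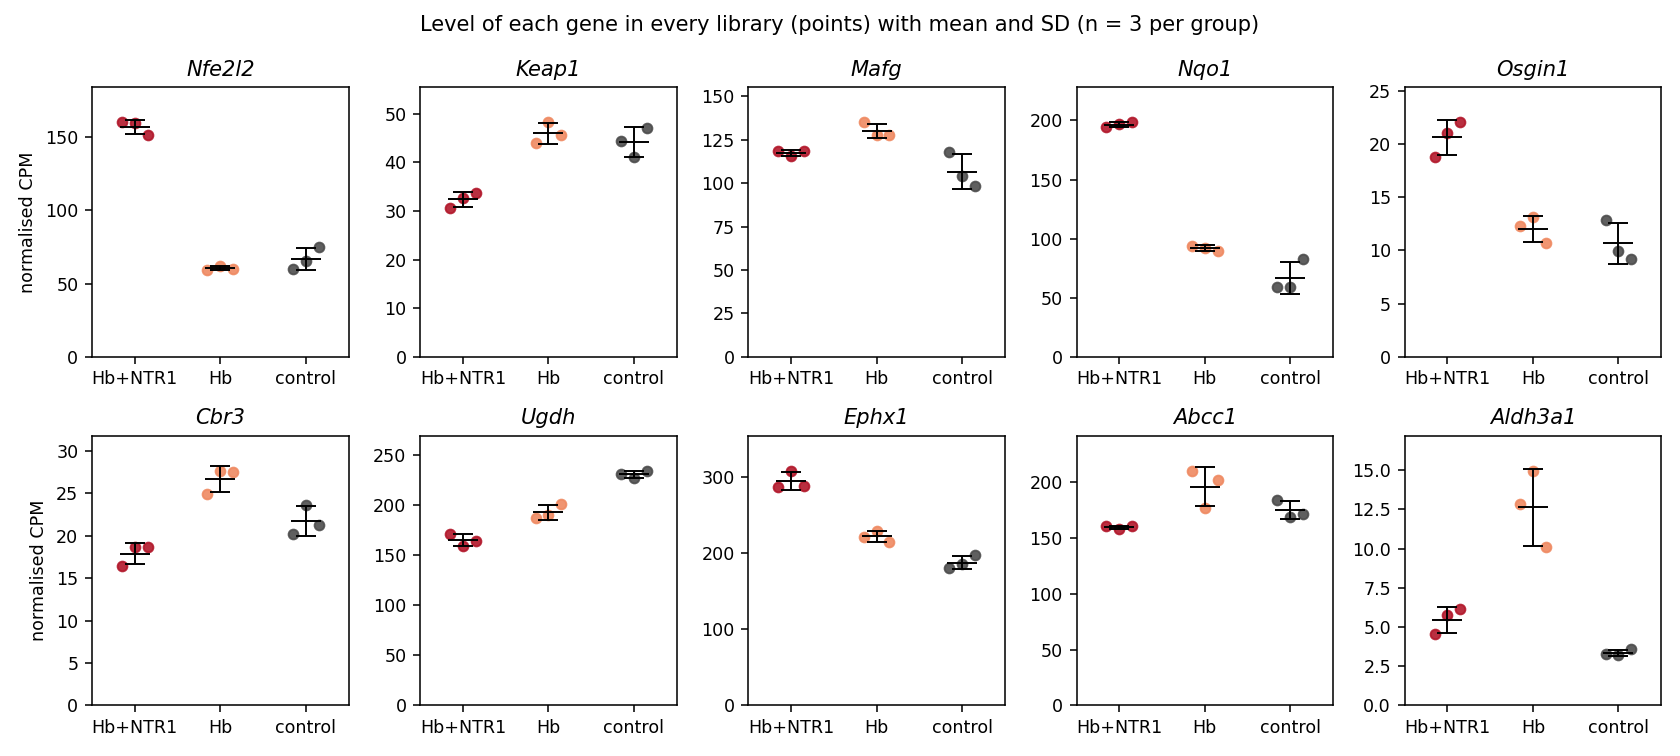
Normalised CPM of each of the 10 genes (y axis, from 0) in every library (points) of Hb+NTR1, Hb and control (x axis), with the mean and SD of 3 libraries. Nfe2l2 and Nqo1 stand at 151.7 to 160.1 and 194 to 198 CPM in Hb+NTR1, above all Hb and control libraries, while Aldh3a1 is highest in Hb, at 10.08 to 14.9 CPM.

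Of the 7 targets, Nqo1, which encodes the quinone reductase that spends NAD(P)H on quinones, was highest in Hb+NTR1, lower in Hb and lowest in control. Nqo1 had 194, 197 and 198 CPM in the Hb+NTR1 libraries, 94.0, 92.1 and 89.1 CPM in the Hb libraries, and 58.6, 58.7 and 82.6 CPM in the control libraries. The 3 groups did not overlap, and control replicate 3 stood above the other 2 control libraries. Nqo1 rose 1.38-fold in Hb against control (log2 fold change 0.46 ± 0.094, edgeR adjusted p = 0.00453), 2.14-fold in Hb+NTR1 against Hb (1.10 ± 0.091, edgeR adjusted p = 5.12e-10) and 2.95-fold in Hb+NTR1 against control (1.56 ± 0.093, edgeR adjusted p = 1.50e-12). The call in Hb against control ended without control replicate 2 (edgeR adjusted p = 0.0518). Hb+NTR1 against Hb and Hb against control share the Hb libraries, so their values are not independent of each other. Nqo1 lies at chr8:107388225-107403206 on the minus strand.

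Ephx1, the microsomal epoxide hydrolase that opens reactive epoxides, followed the same order at a smaller size. Ephx1 had 287, 308 and 289 CPM in the Hb+NTR1 libraries, 221, 229 and 215 CPM in the Hb libraries, and 179.8, 185 and 197 CPM in the control libraries. Again no groups overlapped. It rose 1.33-fold in Hb+NTR1 against Hb (edgeR adjusted p = 3.34e-06) and 1.57-fold in Hb+NTR1 against control (edgeR adjusted p = 2.23e-09). The rise in Hb against control was 1.18-fold (log2 fold change 0.24 ± 0.061, edgeR adjusted p = 0.0238), and it did not pass without control replicate 1 (0.157) or 2 (0.138) or in a fit of the 6 libraries compared (0.0535). Its locus is chr1:180976210-181020904, minus strand.

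Osgin1, an oxidative stress gene named for its inhibition of growth, was higher in Hb+NTR1. Osgin1 had 18.8, 21.04 and 22.03 CPM in the Hb+NTR1 libraries, 12.3, 13.1 and 10.7 CPM in the Hb libraries, and 12.9, 9.89 and 9.22 CPM in the control libraries. The Hb and control libraries overlapped and all lay below Hb+NTR1. Osgin1 rose 1.71-fold against Hb (log2 fold change 0.78 ± 0.130, edgeR adjusted p = 1.51e-05) and 1.93-fold against control (edgeR adjusted p = 1.01e-06). Hb against control gave 0.17, with a 95% interval of -0.12 to 0.45 (edgeR adjusted p = 0.597). Osgin1 lies at chr8:119434124-119446256 on the plus strand.

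Aldh3a1, an aldehyde dehydrogenase that oxidises aldehydes from lipid peroxidation, had its highest level in Hb, unlike Nqo1. Aldh3a1 had 4.52, 5.75 and 6.12 CPM in the Hb+NTR1 libraries, 12.8, 14.9 and 10.08 CPM in the Hb libraries, and 3.25, 3.19 and 3.58 CPM in the control libraries. The 3 groups did not overlap. The log2 fold change was 1.92 ± 0.179 in Hb against control (3.79-fold, edgeR adjusted p = 2.23e-07), where Aldh3a1 ranked 23 from the top of 13810 genes. It was -1.21 ± 0.168 in Hb+NTR1 against Hb (edgeR adjusted p = 1.16e-06) and 0.71 ± 0.196 in Hb+NTR1 against control (1.64-fold, edgeR adjusted p = 0.00296). These levels rest on few reads, with 66 to 88 counts in Hb+NTR1, 136 to 219 in Hb and 48 to 54 in control. Without Hb replicate 2, the highest library, the log2 fold change was 1.78 in Hb against control and -1.07 in Hb+NTR1 against Hb. The gene lies at chr11:61207537-61218421 on the plus strand.

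Cbr3, a carbonyl reductase, was lowest in Hb+NTR1. Cbr3 had 16.4, 18.7 and 18.6 CPM in the Hb+NTR1 libraries, 24.9, 27.6 and 27.5 CPM in the Hb libraries, and 20.2, 23.6 and 21.3 CPM in the control libraries. The 3 groups did not overlap, with Hb on top. Cbr3 fell in Hb+NTR1 against Hb (log2 fold change -0.58 ± 0.103, edgeR adjusted p = 3.63e-05) and against control (-0.28 ± 0.104, edgeR adjusted p = 0.0233). The fall against control did not pass with library totals alone (edgeR adjusted p = 0.0715), without control replicate 2 (0.123) or without Hb+NTR1 replicate 1 (0.121). Hb against control gave 0.30, with a 95% interval of 0.090 to 0.51, which missed the adjusted threshold (edgeR adjusted p = 0.114). Cbr3 lies at chr16:93683215-93690990, plus strand. Cbr1, its close relative, had 31.9 ± 3.13 CPM in Hb+NTR1, 32.6 ± 3.41 in Hb and 34.8 ± 1.25 in control.

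Ugdh, which makes the UDP-glucuronic acid used for glucuronidation and for glycosaminoglycans, was lowest in Hb+NTR1, higher in Hb and highest in control. Ugdh had 171, 159.1 and 164 CPM in the Hb+NTR1 libraries, 187, 190.3 and 202 CPM in the Hb libraries, and 231, 227 and 234 CPM in the control libraries. The groups did not overlap. The log2 fold change of Ugdh was -0.23 ± 0.060 in Hb+NTR1 against Hb (edgeR adjusted p = 0.00217) and -0.49 ± 0.060 in Hb+NTR1 against control (edgeR adjusted p = 1.90e-07). It was -0.26 ± 0.060 in Hb against control (edgeR adjusted p = 0.0127), and this call ended without control replicate 1, 2 or 3 (edgeR adjusted p = 0.0594, 0.0533 and 0.0858). Ugdh is at chr5:65413221-65435949, minus strand.

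Abcc1, also called MRP1, exports glutathione conjugates from the cell. Abcc1 had 160.7, 158.2 and 160.7 CPM in the Hb+NTR1 libraries, 210.2, 177 and 202 CPM in the Hb libraries, and 184, 169 and 171 CPM in the control libraries. Hb+NTR1 lay below both other groups, which overlapped because Hb replicate 2 stood under control replicate 1. Abcc1 fell in Hb+NTR1 against Hb (log2 fold change -0.30 ± 0.067, edgeR adjusted p = 5.02e-04). Against control the log2 fold change was -0.13 (edgeR adjusted p = 0.0927), and it passed without Hb replicate 2 (0.0242) and in a fit of the 6 libraries compared (0.0116). For Hb against control it was 0.17 (edgeR adjusted p = 0.201), and 0.23 without Hb replicate 2 (0.00742). Abcc1 lies at chr16:14361558-14475737, plus strand.

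Over the 10 genes, all of which passed the filter on low counts, Hb against control called 4 higher (Mafg, Nqo1, Ephx1 and Aldh3a1) and 1 lower (Ugdh) at an edgeR adjusted p of 0.05. These are 5 of 10, against 3.65% of the 13810 genes tested (1.88% higher, 1.77% lower). A change of at least 2-fold was called for 1 of the 10, Aldh3a1, against 0.369% of all genes (0.210% higher, 0.159% lower). Without control replicate 2 only 1 of these calls, that of Aldh3a1, remained, and without control replicate 1 or 3 there were 3. Without Hb replicate 2 there were 6, the addition being Abcc1. Libraries did not overlap for 6 of the 10, against 19.6% of all genes. The median log2 fold change of the 10 was 0.21, beside 0.00 over all genes tested.

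In Hb+NTR1 against Hb 4 were called higher (Nfe2l2, Nqo1, Osgin1 and Ephx1) and 5 lower (Keap1, Cbr3, Ugdh, Abcc1 and Aldh3a1), so 9 of 10 against 62.3% of all genes tested (30.7% higher, 31.7% lower). Non-overlap was found for all 10, against 64.7% of all genes. With a majority of all genes called, the number called here is no result about the members. At least 2-fold changes were called for 3 of the 10 (Nfe2l2 and Nqo1 higher, Aldh3a1 lower), against 16.0% of all genes (6.19% higher, 9.79% lower). The median of the 10 was -0.19, beside -0.011 over all genes tested. Against control, Hb+NTR1 had 5 higher (Nfe2l2, Nqo1, Osgin1, Ephx1 and Aldh3a1) and 3 lower (Keap1, Cbr3 and Ugdh), against 63.6% of all genes (31.4% higher, 32.2% lower). At least 2-fold were the changes of 2, Nfe2l2 and Nqo1, against 16.9% of all genes (6.89% higher, 9.99% lower). Libraries did not overlap for 9 of the 10, where the share over all genes was 69.9%. Here the median was 0.40, beside -0.0043 over all genes. The 3 comparisons share libraries pairwise, and the members were proposed with results of these data known, so these counts describe the members and test nothing about them as a group.

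**Figure D2:**
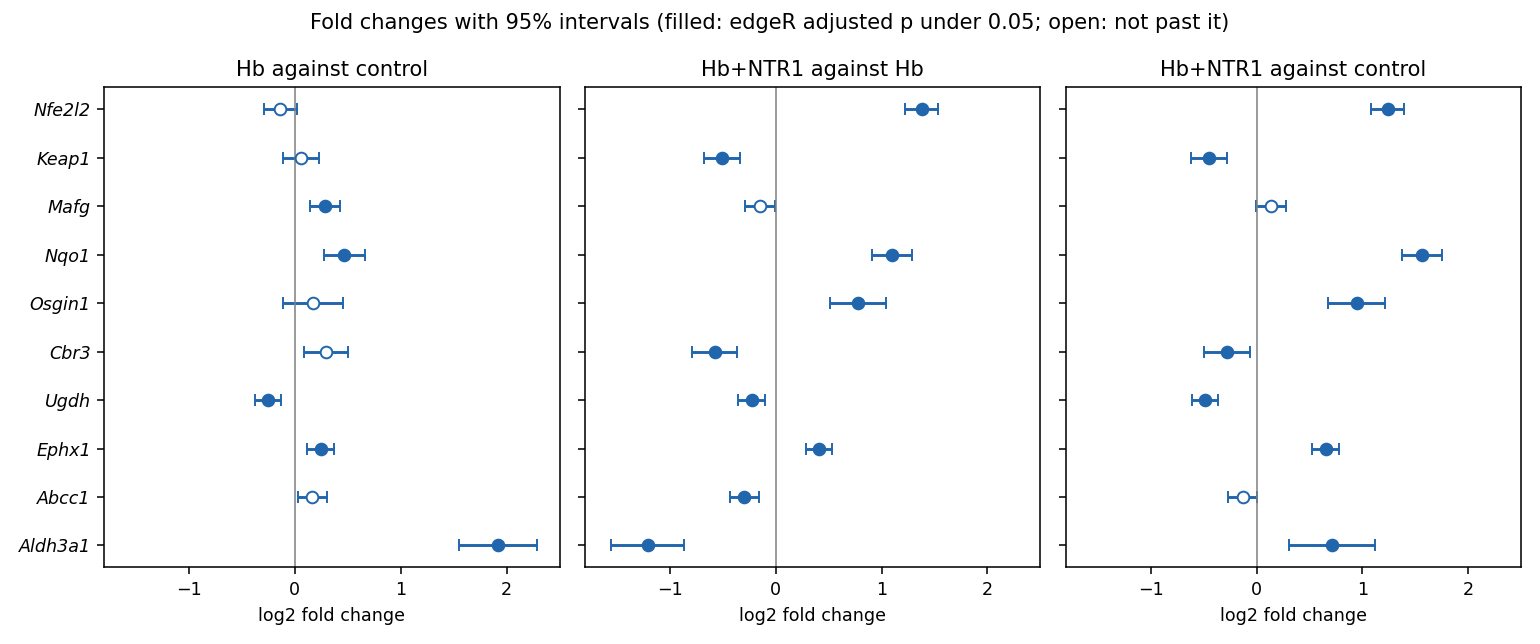
Log2 fold change (x axis) of the 10 genes (y axis) in the 3 comparisons, first-named group over second, with 95% intervals; filled points passed an edgeR adjusted p of 0.05 and open points did not. Nfe2l2 is at 1.38 and Keap1 at -0.51 in Hb+NTR1 against Hb, and Aldh3a1 is at 1.92 in Hb against control but at -1.21 in Hb+NTR1 against Hb.

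Levels of different genes were compared per kilobase of exon, with lengths from GENCODE M21. Each length is the union of the exons of all annotated transcripts, from 1254 bases in Cbr3 to 15092 in Abcc1. Lengths of single transcripts were not used, and the order of the genes depends on this choice. Overlap between neighbours refers to the spread of the libraries only. Ephx1 was the most abundant, at 151 ± 5.94 CPM per kb in Hb+NTR1, 114 ± 3.60 in Hb and 96.0 ± 4.42 in control. Nqo1 had rank 2 in every group, at 126.5 ± 1.41 CPM per kb in Hb+NTR1, 59.1 ± 1.59 in Hb and 42.9 ± 8.90 in control. Nfe2l2 had rank 3 in Hb+NTR1 (41.4 ± 1.25 CPM per kb), rank 6 in Hb (15.9 ± 0.375) and rank 5 in control (17.6 ± 1.99). The order after Nfe2l2 in Hb+NTR1 was Ugdh, Mafg, Cbr3, Abcc1, Osgin1, Keap1 and Aldh3a1, and the libraries of Osgin1 and Keap1 overlapped there. In Hb the order after Nqo1 was Ugdh, Mafg, Cbr3, Nfe2l2, Abcc1, Keap1, Aldh3a1 and Osgin1, with no overlap between neighbours. In control it was Ugdh, Mafg, Nfe2l2, Cbr3, Abcc1, Keap1, Osgin1 and Aldh3a1, where Mafg overlapped with Nfe2l2 and Nfe2l2 with Cbr3. The lowest levels were those of Aldh3a1 in control (1.72 ± 0.108 CPM per kb) and in Hb+NTR1 (2.81 ± 0.432) and of Osgin1 in Hb (4.49 ± 0.463).

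**Figure D3:**
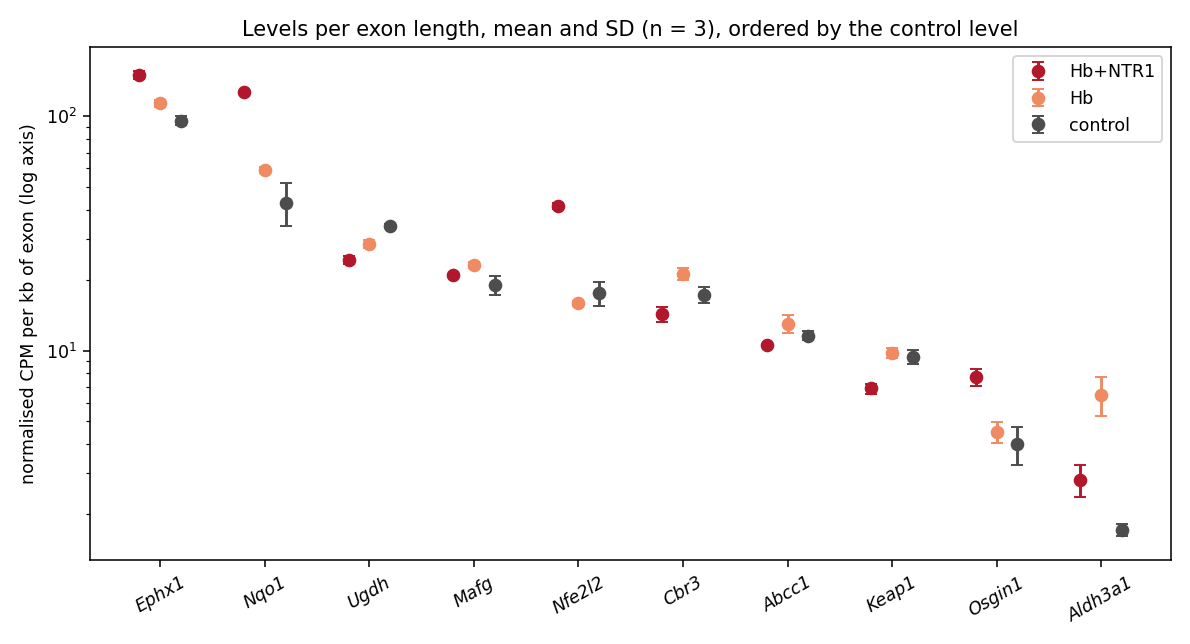
Normalised CPM per kb of exon (log y axis) of the 10 genes (x axis, ordered by the control level), mean and SD of 3 libraries in Hb+NTR1, Hb and control. Nfe2l2 has rank 3 in Hb+NTR1, at 41.4 CPM per kb, and stands between Mafg and Cbr3 in control, at 17.6.

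Spread between libraries was compared with counting error, taken as the inverse square root of the mean count. For Nqo1 the coefficient of variation was 1.11% in Hb+NTR1, 2.68% in Hb and 20.7% in control, where counting error alone would be 1.88%, 2.78% and 3.15%. For Aldh3a1 it was 15.3% in Hb+NTR1, 19.4% in Hb and 6.27% in control, beside counting errors of 11.3%, 7.47% and 14.05%. The spread of Abcc1 in Hb, 8.79%, exceeded its counting error of 1.90%, and Hb replicate 2 was its lowest library. The spread of Aldh3a1 thus exceeded counting error in Hb+NTR1 and Hb and was below it in control, while that of Nqo1 was below it in Hb+NTR1 and Hb and exceeded it in control. Control libraries also spread beyond counting error for Nfe2l2 (11.3% against 3.15%), Mafg (9.31% against 2.47%) and Osgin1 (18.2% against 7.81%).

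The rest of the circuit was described with fixed lists. Of 18 other regulators of KEAP1 and NRF2, 17 were measured, all except Nfe2l3. Only 1 passed the edgeR test in Hb against control. Sqstm1, the autophagy receptor p62 that can capture KEAP1, rose 1.22-fold (edgeR adjusted p = 0.0112), a call that ended without control replicate 1 (0.103) or 3 (0.0620). Of the 17, 7 rose and 2 fell in Hb+NTR1 against Hb, with a median of 0.12 beside -0.011 over all genes. Of all genes tested in that comparison 30.7% rose and 31.7% fell. The shares were 1.88% and 1.77% in Hb against control, and 31.4% and 32.2% in Hb+NTR1 against control. Counts of this and the following lists stand beside the shares of the same comparison and are no result about a list. Among the 17, Maff, a small MAF gene like Mafg, had 32.1 ± 3.65 CPM in Hb+NTR1 and 10.9 ± 1.08 in Hb (log2 fold change 1.56 ± 0.115, edgeR adjusted p = 3.26e-11). Sqstm1 had 1066 ± 41.1 CPM in Hb+NTR1 and 600.2 ± 39.5 in Hb (log2 fold change 0.83, edgeR adjusted p = 1.01e-10). Bach1, a repressor that competes with NRF2 for the same elements and is itself released by heme, had 71.6 ± 2.65 CPM in Hb+NTR1 and 44.6 ± 0.723 in Hb (0.68, edgeR adjusted p = 3.31e-08). Bach2, its relative, fell to 4.83 ± 0.333 CPM in Hb+NTR1, against 9.04 ± 2.54 in Hb (-0.90, edgeR adjusted p = 2.16e-04). Hb+NTR1 against control also had 7 higher and 2 lower, with Maff at 1.44 and Bach2 at -1.32 on the log2 scale (edgeR adjusted p = 9.28e-11 and 8.99e-07). Cul3, the ligase scaffold, had 187.8 ± 6.31 CPM in Hb+NTR1, 185 ± 11.6 in Hb and 190.4 ± 6.26 in control, and passed in no comparison.

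Carbonyl and quinone reducing genes, the class of Nqo1 and Cbr3, had all 15 listed genes measured, of which 2 rose and 1 fell in Hb against control. Akr1b3, aldose reductase, rose 1.34-fold and Ptgr1, a prostaglandin reductase, 1.25-fold (edgeR adjusted p = 0.00197 and 0.00666), while Cbr2, another carbonyl reductase, fell by 0.35 on the log2 scale (edgeR adjusted p = 0.0384). The Ptgr1 call ended without control replicate 1 (0.0636), and that of Cbr2 under 7 alternatives, at edgeR adjusted p = 0.0539 to 0.219. Of the 15, 5 rose and 5 fell when Hb+NTR1 was set against Hb, near the shares of all genes. Aox1, an aldehyde oxidase, rose to 23.6 ± 2.30 CPM in Hb+NTR1, against 3.03 ± 0.517 in Hb (log2 fold change 2.96 ± 0.171, edgeR adjusted p = 3.99e-13). Cbr2 fell to 8.91 ± 1.03 CPM in Hb+NTR1, against 40.9 ± 2.66 in Hb (log2 fold change -2.20 ± 0.114, edgeR adjusted p = 5.79e-14), so it fell with Cbr3 and by more. Por, the reductase that feeds electrons to cytochromes P450, rose 1.73-fold and Ptgr1 1.70-fold (edgeR adjusted p = 5.32e-10 and 9.48e-10). Set against control, 5 rose and 6 fell in Hb+NTR1, and the authors' deposited table of that comparison lists Aox1 at a log2 fold change of 3.48 and Cbr2 at -2.55. The smallest absolute log2 fold change among the 691 genes of the authors' deposited table is 2.0046, which no member reached against control, so none of the 10 is listed there.

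Of 11 aldehyde dehydrogenases and epoxide hydrolases other than Aldh3a1 and Ephx1, 5 were measured. Hb against control gave 0 calls by edgeR, 0 by DESeq2 and 0 at an unadjusted p under 0.05. In Hb+NTR1, 3 rose and 1 fell against Hb, and the same numbers rose and fell against control. Aldh3b1 rose to 18.8 ± 0.646 CPM in Hb+NTR1, against 3.21 ± 0.306 in Hb (log2 fold change 2.54 ± 0.162, edgeR adjusted p = 2.38e-12). Aldh2, the mitochondrial acetaldehyde dehydrogenase, rose 2.42-fold and Aldh3a2, a fatty aldehyde dehydrogenase, 1.51-fold (edgeR adjusted p = 3.13e-11 and 6.57e-08). Aldh7a1 had 18.8 ± 0.559 CPM in Hb+NTR1 and 22.4 ± 0.567 in Hb (edgeR adjusted p = 0.0274, and 0.0557 to 0.0815 in 4 alternatives). Aldh3a1 thus fell in Hb+NTR1 against Hb while Aldh3a2, Aldh3b1 and Aldh2 rose.

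Glucuronidation and sulfation genes had 8 of 15 measured. Hb against control gave 0 calls by edgeR and by DESeq2, with 2 genes at an unadjusted p under 0.05, while 3 rose and 3 fell in Hb+NTR1 against Hb. Ugp2, which makes the UDP-glucose that Ugdh oxidises, rose 1.25-fold and Slc35d1, a carrier of UDP-glucuronic acid, 1.27-fold (edgeR adjusted p = 2.44e-04 and 7.94e-04). Papss1, which makes the sulfate donor, had 102.7 ± 3.34 CPM in Hb+NTR1 and 143.7 ± 2.30 in Hb (log2 fold change -0.48, edgeR adjusted p = 3.05e-07). Gusb, beta-glucuronidase, which removes glucuronic acid, had 89.7 ± 5.80 CPM in Hb+NTR1 and 79.1 ± 6.31 in Hb (0.18, edgeR adjusted p = 0.0430, and 0.0548 to 0.199 in 7 alternatives). Exporters had 9 of 12 measured, with 1 called in Hb against control. That was Abcg2, an efflux pump, which fell, at 40.8 ± 2.53 CPM in Hb and 55.6 ± 2.20 in control (log2 fold change -0.45, edgeR adjusted p = 9.26e-04). Without Hb replicate 2, Abcc4 and Abcc5 were also called in Hb against control, both higher (log2 fold change 0.285 and 0.288, edgeR adjusted p = 0.0341 and 0.00133). Set against Hb, 4 exporters rose and 2 fell in Hb+NTR1. Abcc4 rose 2.06-fold (edgeR adjusted p = 9.17e-10), while Abcc5 fell together with Abcc1, to 164.2 ± 11.4 CPM in Hb+NTR1, against 246.6 ± 24.3 in Hb (log2 fold change -0.59, edgeR adjusted p = 2.05e-07). Abcc10 fell too, to 9.72 ± 1.25 CPM in Hb+NTR1, against 14.6 ± 2.59 in Hb (-0.58, edgeR adjusted p = 0.00134), and Abcg2 rose 1.19-fold (edgeR adjusted p = 0.00875).

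The antioxidant arm of the same program had all 18 listed genes measured. In Hb against control 11 rose, where 1.88% of all genes tested did, and the other 7 did not pass. The median was 0.31, beside 0.00 over all genes. Hmox1, heme oxygenase 1, had 86.7 ± 7.92 CPM in Hb and 42.3 ± 1.47 in control (log2 fold change 1.03 ± 0.081, edgeR adjusted p = 1.31e-08), and Gsta4, a glutathione transferase for lipid aldehydes, had 263 ± 36.3 CPM in Hb and 105.8 ± 13.02 in control (1.32 ± 0.089, edgeR adjusted p = 4.77e-09). Set against Hb, 11 rose and 5 fell in Hb+NTR1, at a median of 0.54. Txnrd1, thioredoxin reductase, had 815 ± 43.8 CPM in Hb+NTR1 and 319 ± 9.10 in Hb (1.35 ± 0.061, edgeR adjusted p = 4.65e-15), and Srxn1, sulfiredoxin, had 334 ± 17.2 CPM in Hb+NTR1 and 121 ± 1.49 in Hb (1.46 ± 0.062, edgeR adjusted p = 1.41e-15). Hmox1 reached 180.3 ± 16.03 CPM in Hb+NTR1 (1.06 ± 0.076 against Hb, edgeR adjusted p = 2.33e-11). Gsta4 fell to 27.7 ± 0.871 CPM in Hb+NTR1, with -3.25 ± 0.100 against Hb (edgeR adjusted p = 1.01e-17). Set against control, 11 rose and 3 fell in Hb+NTR1, at a median of 0.69, with Gsta4 at -1.93 and Aldh3a1 at 0.71. Fth1 and Ftl1, the ferritin subunits, were called higher in Hb than in control (1.67-fold and 1.56-fold, edgeR adjusted p = 1.54e-06 and 0.0152), but their reads can be shared with near-identical copies, so these values are uncertain. The Ftl1 call ended without control replicate 3 (0.123).

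**Figure D4:**
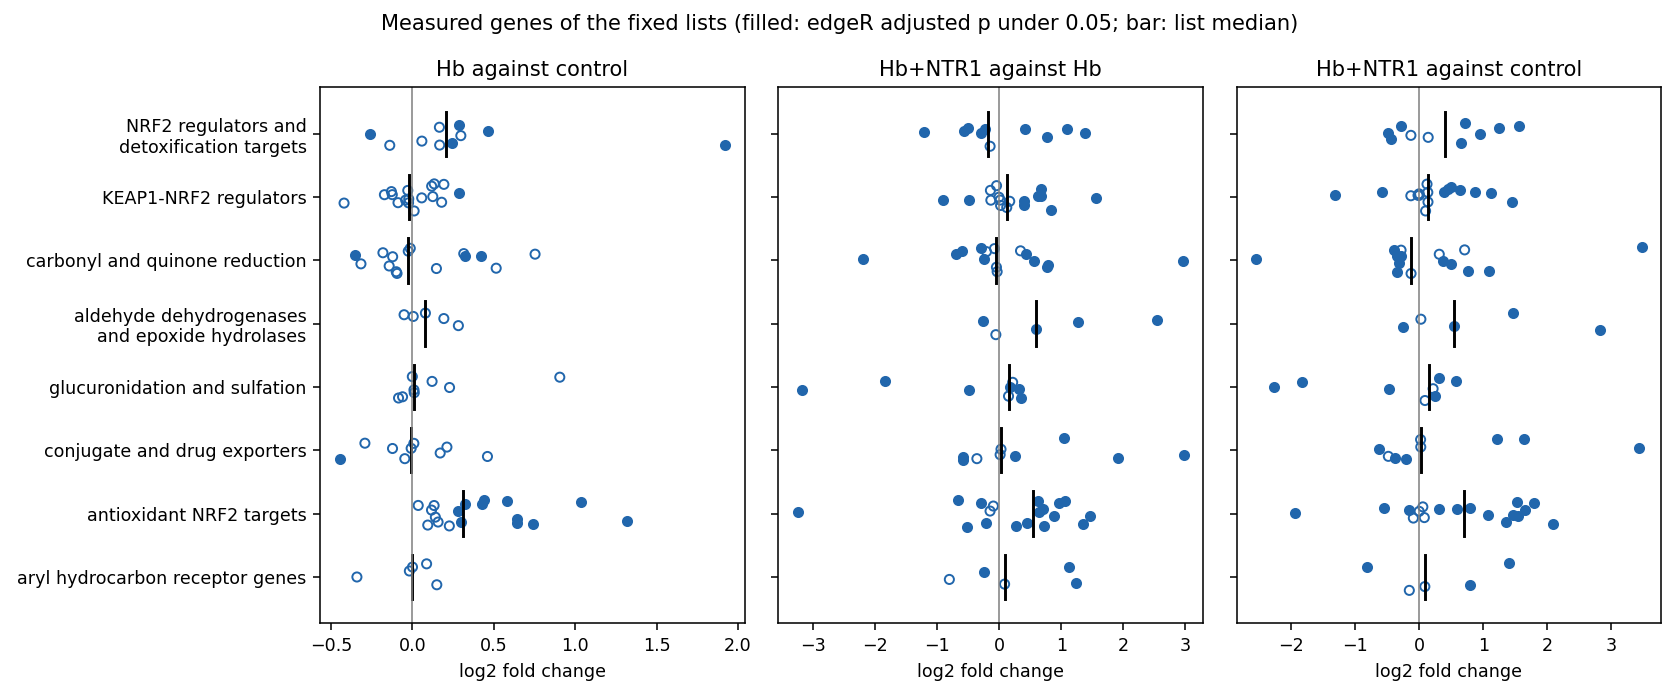
Log2 fold change (x axis, a different range in each panel) of the measured genes of the 10 members and of 7 fixed lists (y axis) in the 3 comparisons, with filled points for an edgeR adjusted p under 0.05 and a bar at each list's median. The antioxidant list lies mostly to the right of 0 in Hb against control (11 of 18 called higher, beside 1.88% of all genes tested). Each of the 7 lists has called genes on both sides of 0 in Hb+NTR1 against Hb.

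Genes of the aryl hydrocarbon receptor, which shares Nqo1 and Aldh3a1 as targets, had 5 of 8 measured. Cyp1a1, its usual target, had 0 to 0.140 CPM in the Hb+NTR1 libraries and no count in the Hb and control libraries. Hb against control gave 0 calls by edgeR and by DESeq2, with 1 gene at an unadjusted p under 0.05. Tiparp, a feedback target, had 91.2 ± 4.10 CPM in Hb and 82.3 ± 11.1 in control (edgeR adjusted p = 0.368). Of the 5, 2 rose in Hb+NTR1 against Hb. Tiparp rose to 216 ± 10.6 CPM in Hb+NTR1 (log2 fold change 1.25 ± 0.078 against Hb, edgeR adjusted p = 1.88e-12) and Ahr, the receptor, to 11.7 ± 0.792 CPM, against 5.34 ± 0.740 in Hb (1.13 ± 0.154, edgeR adjusted p = 9.11e-07). Cyp1b1 had 20.6 to 24.9 CPM in Hb+NTR1, 36.9 to 41.5 in Hb and 25.7 to 62.8 in control. Its log2 fold change was -0.80 in Hb+NTR1 against Hb (edgeR adjusted p = 0.0512), where 7 alternatives passed, at an adjusted p of 4.39e-07 to 0.0488 by edgeR or DESeq2. It was -0.82 against control (edgeR adjusted p = 0.0455), where 11 alternatives did not pass, at 0.0517 to 0.149.

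The genes whose level ran most like that of Nfe2l2 over the 9 libraries were Gramd3, Serinc3 and Nxt2, among 10295 genes with a mean of at least 5 CPM. Likeness was the root mean square difference of centred log2 CPM, and it was 0.056, 0.082 and 0.084, where Nfe2l2 itself varied by 0.62 around its mean. Gramd3 had 29.6 CPM in Hb+NTR1, 11.3 in Hb and 12.7 in control. For Nqo1 the nearest were Ptgs2, Hexa and Gpnmb, at 0.135, 0.140 and 0.143, where Nqo1 varied by 0.67. Ptgs2 had 283 CPM in Hb+NTR1, 143.8 in Hb and 110.4 in control. None of the 6 is a member or on a fixed list.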

How the data were processed

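RNA of 9 libraries (3 groups of 3) was analysed from the deposited count table, in which the authors gave each gene symbol its raw, unscaled counts. Per the submitters' processing notes the tools named are bcl2fastq 2.19.1.403, HISAT2 2.1.0 and HTSeq 0.10.0, with GRCm38. No source used here gives the strand setting, the annotation release or the treatment of multi-mapping reads. Near-identical and overlapping genes are uncertain for that reason. The authors' deposited table of Hb+NTR1 against control gives log2 fold changes and p-values for 691 genes, by a test that no source used here names; its counts equal the count table's. Count columns beginning with N were taken as Hb+NTR1, since that table holds only N and C columns.

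Of 54232 entries, 98 that repeated a symbol and all its counts were removed. With R 4.3.3 and edgeR 4.0.16, genes were kept by filterByExpr (minimum count 10; 13810 genes), scaled by TMM and fitted over all 9 libraries with group as the only term (common biological coefficient of variation 6.90%). Comparisons used the two-sided quasi-likelihood F test with Benjamini-Hochberg adjustment over all genes, threshold 0.05. The SE is the size of the log2 fold change over the square root of F, and 95% intervals use it with the degrees of freedom of the fit. The fit was tested on simulated data. Alternatives were DESeq2 1.42.0, DESeq2 size factors, library totals, other filters, the 6 libraries of a comparison, a replicate block and each library left out. A count of 0 allows up to 3 counts, and such floors cover counting error only. Exon lengths and positions came from GENCODE M21, promoter windows from RefSeq on GRCm38.p6.

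The members and the 7 pathway lists were chosen with earlier results of these data known. Named genes were all members, up to 4 called genes with at least 5 CPM per list and comparison, 4 fixed reference targets, and the 3 genes most like Nfe2l2 and Nqo1. A gene that this rule picked is not reported here. Cbr1, Cul3 and Cyp1a1 were added after their values were seen.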

Additional observations from a re-analysis of the deposited data

How the results depend on the processing

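For the 10 members, the side of the threshold held in 149 of the single results under the alternatives in Hb against control. It held in 159 in Hb+NTR1 against Hb and in 151 in Hb+NTR1 against control. The exceptions were 10, 0 and 3 calls lost and 1, 1 and 6 gained, and no member reversed a called direction. Direction was compared only where the main fit or the alternative gave a call. The number of genes called with one library left out ran from 285 to 1125 in Hb against control (504 with all 9), from 7909 to 8660 in Hb+NTR1 against Hb (8607) and from 8006 to 9358 in Hb+NTR1 against control (8783). The number of members called ran from 1 to 6, from 9 to 10 and from 7 to 10 in the same order. Leaving out control replicates 1, 2 and 3 in turn gave 315, 285 and 286 called genes in Hb against control, and leaving out Hb replicate 2 gave 1125. Cyp1b1 in Hb against control turned to a log2 fold change of 0.46 without control replicate 3 (edgeR adjusted p = 0.0318), against -0.019 with all libraries and a lowest value of -0.26 without control replicate 2. Scaling by library totals alone moved the share of higher calls in Hb against control to 65.8%, against 51.4% with TMM.

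Replicate numbers are shared between groups in the labels, but same-numbered libraries did not deviate together (correlations of -0.045 to 0.118 across genes). With the replicate block 645, 8704 and 8899 genes were called in Hb against control, Hb+NTR1 against Hb and Hb+NTR1 against control, with 5, 9 and 8 members, so that no count of members changed. Counting error alone was 11.3% of the level of Aldh3a1 in Hb+NTR1, 7.47% in Hb and 14.05% in control.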
